A study of Homo sapiens with 18 samples.

Results

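T47D cells that carry the genotype label PARP1 KO were exposed to niraparib at 10 μmol/L for 48 hours, and their poly(A) RNA was compared with that of PARP1 KO cells given DMSO, the solvent. The comparison rests on 6 of the 18 libraries of the series, namely the 3 labelled PARP1 KO and niraparib and the 3 labelled PARP1 KO and DMSO, all chosen by their labels. T47D is an established luminal breast cancer line that depends on estrogen. The other libraries are PARP1 KO cells with olaparib and WT cells with DMSO, niraparib or olaparib (3 each, same dose and time), and they enter below only where they are set beside the niraparib response of PARP1 KO cells. The study prepared 3 dishes per condition, and that each library came from its own dish is not stated. All 9 PARP1 KO libraries share the knockout, the controls included. How the knockout was made, and whether the line is 1 clone, is not given in the sources used here.

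PARP1 is an abundant nuclear enzyme that binds DNA breaks and attaches chains of ADP-ribose to itself and to chromatin proteins nearby. Niraparib and olaparib occupy its NAD+ site and hold the enzyme on damaged DNA. A cell without PARP1 lacks this target, and the comparison asks which RNA levels differ with niraparib in such cells. Other targets remain: the study reports that both drugs engage PARP2 in live cells, niraparib more weakly, and that niraparib binds lanosterol synthase.

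The PARP1 gene itself was read at 24.8 ± 1.34 CPM (counts per 1000000 counts of the library; SD, n = 9, range 22.9 to 27.1) in PARP1 KO cells and at 341 ± 17.9 CPM (n = 9, range 313 to 368) in WT cells. The level in PARP1 KO cells was 7.27% of that in WT cells, and the genotypes did not overlap (exact permutation test, 2-sided, P = 4.1e-05). The 9 libraries of a genotype are the same line under DMSO, niraparib or olaparib, so this P value is over libraries and not over independent lines. Within PARP1 KO cells, PARP1 was at 24.4 ± 1.84 CPM with niraparib against 24.4 ± 0.27 CPM with DMSO (n = 3 each). The luminal identity of T47D was visible in all 6 libraries: each of the 14 luminal breast markers looked at had a mean of at least 1 CPM, and together they took 18130 to 18481 CPM with niraparib against 18889 to 19478 CPM with DMSO. The 8 leukocyte and endothelial markers together stayed below 2.76 CPM in every library, with CDH5 at 0 in all 6.

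The 6 libraries held 28890837 to 42054783 counts. Niraparib library 3 and DMSO library 3 stood apart from the others of their group: the chi-square between libraries, per gene, was 3.13 for niraparib 1 and 2 but 11.7 and 14.7 for niraparib 3 against them, and 3.15 for DMSO 1 and 2 but 10.5 and 5.74 for DMSO 3 against them. Mitochondrially encoded genes took 5.58% of the counts in niraparib 3 and 4.55% to 5.02% in the other 5 libraries.

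Few genes differed between niraparib and DMSO in PARP1 KO cells, and the differences were small. The genes with the largest calls were FOS and DUSP1, both immediate early genes, which cells switch on within minutes of a signal from the growth factor and stress kinases. They were followed by MORN3, a protein with MORN repeats. Of 22037 genes tested, these 3 genes passed an adjusted P value of 0.05 with a change of more than 1.5-fold (0.0136% of the genes tested), all higher with niraparib, by edgeR's quasi-likelihood test with Benjamini-Hochberg adjustment. At an adjusted P under 0.05 whatever the size of the change, 24 genes passed (0.109%), 13 higher and 11 lower. That count was 97 by DESeq2, 70 in a fit of all 18 libraries and 184 with no filter on low counts. With the 1.5-fold limit DESeq2 called 8 genes, 6 higher and 2 lower. At an unadjusted P value below 0.05, 990 genes were higher (4.49%) and 1024 were lower (4.65%). The median log2 fold change over all genes was 0.01.

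The bounds on the change depended on the level of the gene. Over all 22037 genes tested, the 95% interval lay within 1.5-fold of no change for 53.1%, with a median standard error of 0.16 on the log2 scale. Among the 13503 genes averaging at least 1 CPM over the 6 libraries, the 95% interval of the change lay within 1.5-fold of no change for 11684 (86.5%), with a median standard error of 0.08 on the log2 scale. In the same cells, at the same dose and time, 177 genes passed both thresholds with olaparib (0.803%), and 100 to 195 did with a library left out. In a separate fit of all 18 libraries, 3101 of 24675 genes did with niraparib in WT cells (12.6%) and 6 with niraparib in PARP1 KO cells, 4 higher and 2 lower.

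From here on, the CPM of single genes are scaled by the TMM factor of each library. FOS encodes the AP-1 subunit c-Fos (ENSG00000170345, GRCh38 chr14:75278826-75282230, plus strand). It was read at 86.1, 85.0 and 78.8 CPM in the 3 niraparib libraries and at 43.2, 45.9 and 47.01 CPM in the 3 DMSO libraries. Every niraparib library was above every DMSO library, with a gap wider than the spread of either group. The log2 fold change was 0.88 (SE 0.08, 95% interval 0.72 to 1.03, adjusted P = 8.22e-06, edgeR). DUSP1 encodes a nuclear phosphatase that switches off p38, JNK and ERK kinases (ENSG00000120129, GRCh38 chr5:172768096-172771195, minus strand). Its levels were 76.4, 85.9 and 79.7 CPM with niraparib against 44.8, 52.5 and 47.9 CPM with DMSO. The groups were again separate, and the log2 fold change was 0.74 (SE 0.07, 95% interval 0.60 to 0.88, adjusted P = 5.84e-06, edgeR). In each setting of the analysis tried, including the fits that left out a library, FOS and DUSP1 were called, except that 0 genes passed an absolute log2 fold change of 1.5.

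The 250 bases before the start of FOS and of DUSP1 are shown because these genes had the largest estimates of the called genes and because immediate early promoters often carry a cAMP response element (CRE), the binding letters of CREB and ATF proteins. Sequences are from RefSeq (GRCh38.p14), 5′ to 3′ on the strand of the gene, and capitals mark TGACG, the CRE core, or the full palindrome TGACGTCA, on either strand.
DUSP1, chr5:172771196-172771445, minus strand: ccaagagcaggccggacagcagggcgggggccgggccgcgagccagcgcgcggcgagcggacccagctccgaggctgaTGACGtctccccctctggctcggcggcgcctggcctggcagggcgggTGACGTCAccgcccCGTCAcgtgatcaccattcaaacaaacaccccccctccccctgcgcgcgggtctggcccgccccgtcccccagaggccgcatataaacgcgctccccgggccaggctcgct
FOS, chr14:75278578-75278827, plus strand: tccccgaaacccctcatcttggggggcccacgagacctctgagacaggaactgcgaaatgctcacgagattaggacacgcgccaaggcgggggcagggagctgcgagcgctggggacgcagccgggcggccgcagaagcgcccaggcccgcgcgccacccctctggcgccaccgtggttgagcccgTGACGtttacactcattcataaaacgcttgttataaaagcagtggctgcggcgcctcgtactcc
DUSP1 holds a full CRE at positions -125 to -118 from the start and 2 more core sites, at -172 to -168 and at -111 to -107. FOS holds 1 core site at -64 to -60. Both also have TATAAA close to the start, at -30 to -25 in DUSP1 and at -33 to -28 in FOS. Among 27305 promoters of the same length, the full CRE was in 1.77%, the core site in 21.7% and TATAAA on the gene's own strand in 7.17%. Of the 24 genes with an adjusted P under 0.05, 18 were in the promoter table: 1 held the full CRE, 5 the core site and 2 TATAAA, while the AP-1 letters TGANTCA (6.6% of all promoters) and the CArG box (1.14%), searched on both strands, were in 0 of 18. MORN3, CCN1, ANP32E, ACAA1, GALNT6 and B4GALNT3 had no entry among these promoters and were not searched. The search did not reach beyond the 250 bases, so it does not show that a gene lacks a site further upstream. The core site overlaps the full CRE, and a match in letters is a description of the sequence only.

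MORN3 (ENSG00000139714, GRCh38 chr12:121648742-121672631, minus strand) was read at 9.93, 9.79 and 9.95 CPM with niraparib against 7.03, 6.29 and 6.23 CPM with DMSO. The niraparib libraries were close to each other and above all DMSO libraries. The log2 fold change was 0.60 (SE 0.12, 95% interval 0.36 to 0.84, adjusted P = 0.0405, edgeR). This call was less secure than the other 2, since without any 1 of the 6 libraries the adjusted P value lay between 0.0792 (without niraparib 3) and 0.279 (without DMSO 2).

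**Figure D1:**
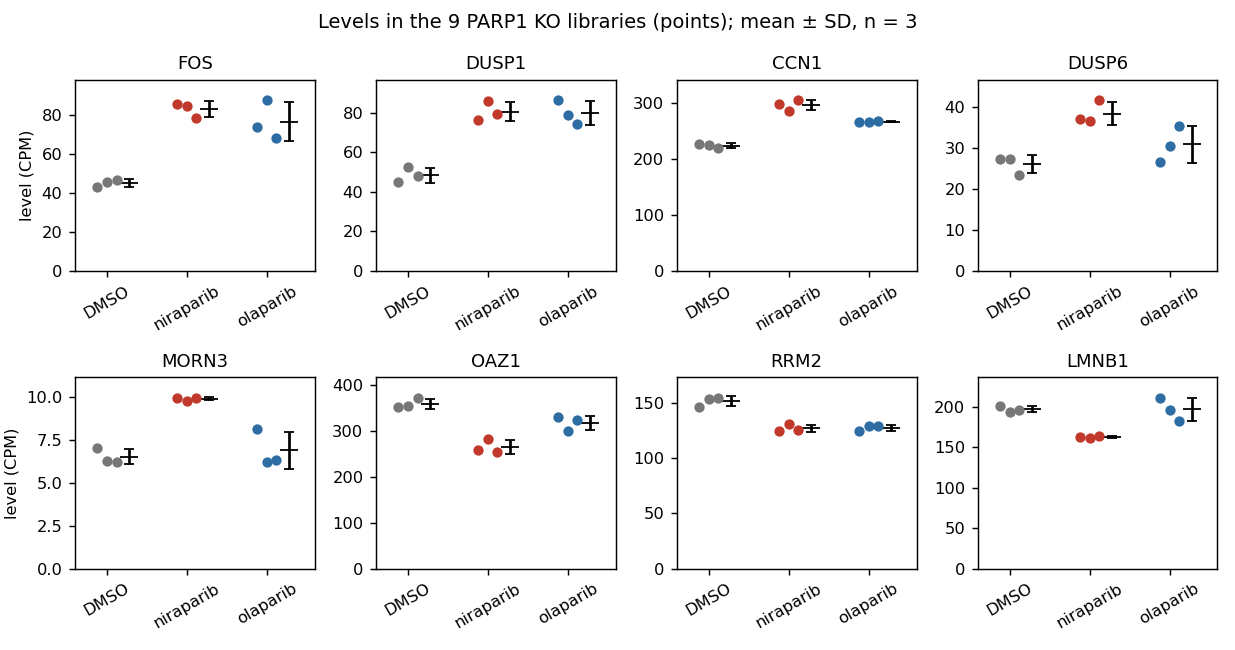
Levels in CPM (vertical axes from 0) of 8 genes in the 9 PARP1 KO libraries, with a point for each library and the mean ± SD (n = 3) beside the points. The niraparib points of FOS, DUSP1, CCN1, DUSP6 and MORN3 lie above all DMSO points and those of OAZ1, RRM2 and LMNB1 below them, while the olaparib points of MORN3 and LMNB1 overlap those of DMSO.

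The other genes that rose (adjusted P below 0.05, less than 1.5-fold) included another kinase phosphatase and a matrix protein. CCN1 encodes a secreted matricellular protein whose transcript follows YAP and serum response factor. It was read at 298, 287 and 306 CPM with niraparib against 227, 226 and 219 CPM with DMSO. The groups were separate by more than their spread, with a log2 fold change of 0.41 (SE 0.05, adjusted P = 7.26e-05, edgeR). DUSP6, the cytoplasmic phosphatase that is specific for ERK, was at 36.9, 36.4 and 41.6 CPM against 27.4, 27.3 and 23.4 CPM, with a log2 fold change of 0.56 (SE 0.09, adjusted P = 0.0296). Here niraparib 3 was the highest and DMSO 3 the lowest library, and without any 1 library the adjusted P value was between 0.0856 and 0.199.

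The remaining genes that rose had varied roles. ABCC11, an efflux transporter of the apical membrane, was at 216, 226 and 199 CPM with niraparib against 160, 169 and 166 CPM with DMSO (log2 fold change 0.37, adjusted P = 0.0012, edgeR). GALNT6 starts mucin-type O-glycans and went from 117 to 141 CPM on average (log2 fold change 0.27, adjusted P = 0.0223). B4GALNT3, which caps glycans with N-acetylgalactosamine, was at 9.86, 9.63 and 10.7 CPM against 7.27, 6.90 and 6.50 CPM (log2 fold change 0.55, adjusted P = 0.0316). L1CAM, an adhesion molecule of the immunoglobulin family, had a log2 fold change of 0.37 (adjusted P = 0.0152). The others were ACAA1, the peroxisomal thiolase of fatty acid oxidation (0.33), PPP2R5B, a regulatory subunit of protein phosphatase 2A (0.36), ADARB1, an adenosine-to-inosine RNA editing enzyme (0.45), and PDZD4 (0.53), as log2 fold changes with adjusted P values between 0.0196 and 0.0451.

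Of the 11 genes that fell, OAZ1 had the smallest P value. It encodes antizyme, the inhibitor of ornithine decarboxylase and so of polyamine synthesis. OAZ1 was read at 260, 284 and 255 CPM with niraparib against 354, 354 and 373 CPM with DMSO. The groups were far apart, with a log2 fold change of -0.44 (SE 0.05, adjusted P = 0.00016, edgeR). ALG1, a mannosyltransferase that builds the precursor of N-glycans, was at 19.4, 19.6 and 19.8 CPM against 27.97, 29.3 and 28.2 CPM (log2 fold change -0.54, adjusted P = 0.0011). Its counts are uncertain, because 22.2% of its exon bases are shared with another annotated gene of the same strand and near-identical copies of it exist elsewhere in the genome. BAG1, a co-chaperone of HSP70, was at 42.3, 42.04 and 45.4 CPM against 58.8, 58.2 and 56.7 CPM (log2 fold change -0.42, adjusted P = 0.00308). PHB1, the prohibitin of the inner mitochondrial membrane, fell by 0.31 on the log2 scale (adjusted P = 0.00452).

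The other genes that fell had varied roles. RRM2, the small subunit of ribonucleotide reductase, which supplies deoxynucleotides in S phase, was at 125, 131 and 125 CPM with niraparib against 146, 153 and 154 CPM with DMSO. All niraparib libraries were below all DMSO libraries, with a log2 fold change of -0.26 (SE 0.05, adjusted P = 0.0316, edgeR). LMNB1, a lamin of the nuclear envelope, was at 162, 162 and 164 CPM against 201, 194 and 196 CPM (log2 fold change -0.27, adjusted P = 0.0316). ANP32E, the chaperone that removes histone H2A.Z from chromatin, fell by 0.31 (adjusted P = 0.0092), GTF2A1, a subunit of the general factor TFIIA, by 0.38 (adjusted P = 0.0118), and DEPDC1B, a protein with a DEP domain, by 0.35 (adjusted P = 0.031), all on the log2 scale. SLC35A3, the Golgi carrier of UDP-N-acetylglucosamine, had a log2 fold change of -0.36 (adjusted P = 0.0388). PER3, a repressor of the circadian clock, was at 50.2, 50.1 and 53.8 CPM against 64.2, 61.6 and 63.0 CPM (log2 fold change -0.29, adjusted P = 0.0451).

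The 24 genes had the same direction in all settings tried, but the number past the threshold depended on the libraries. With a library left out, 8 of the 24 (without niraparib 1, and also without DMSO 2) to 16 (without niraparib 3) had an adjusted P under 0.05. Over all genes tested, 8 (without niraparib 1) to 26 (without niraparib 3) had an adjusted P under 0.05. The genes that stayed below it in all 6 such fits were ABCC11, ALG1, CCN1, DUSP1, FOS and OAZ1. Without niraparib 3 and DMSO 3 together, 9 of the 24 genes had an adjusted P under 0.05, and DUSP6 (0.42, adjusted P = 0.176), PDZD4 (0.44, 0.258) and ADARB1 (0.35, 0.323) had smaller log2 fold changes. In 0 of the 6 fits did MORN3, DUSP6, RRM2, PDZD4, ADARB1, B4GALNT3 or SLC35A3.

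**Figure D2:**
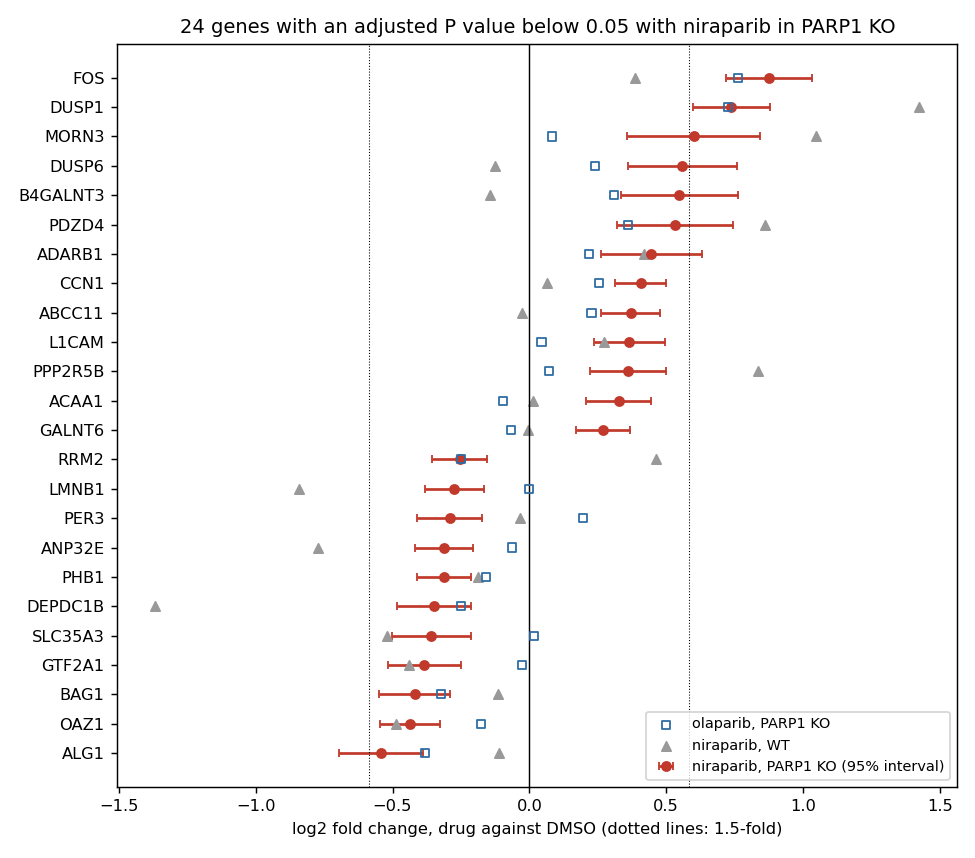
Log2 fold change against DMSO (horizontal axis) of the 24 genes with an adjusted P under 0.05 with niraparib in PARP1 KO cells, with the 95% interval as a bar, the olaparib value of the same cells as a square and the niraparib value of WT cells as a triangle. FOS, DUSP1 and MORN3 lie beyond the dotted 1.5-fold line, the square of PER3 lies across 0 from its circle (adjusted P = 0.036), as does the triangle of RRM2 (adjusted P = 1.25e-09), while the other squares and triangles that lie across 0, such as those of ACAA1, GALNT6, B4GALNT3 and DUSP6, are close to it.

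Olaparib is another PARP inhibitor, with a scaffold different from that of niraparib. The 2 drugs were compared directly in PARP1 KO cells at the same dose and time: 236 of 22037 genes differed (1.07%, adjusted P below 0.05 and more than 1.5-fold), 137 higher and 99 lower with niraparib. Without niraparib 2 the count was 144, with 69 higher and 75 lower. Both drugs were measured against the same 3 DMSO libraries, so their changes against DMSO are given side by side only.

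For FOS and DUSP1 the difference between the drugs did not pass the threshold. The olaparib libraries read 74.2, 87.9 and 68.3 CPM for FOS and 86.5, 78.8 and 74.7 CPM for DUSP1, which overlaps the niraparib libraries in both cases. Niraparib minus olaparib was 0.12 on the log2 scale for FOS (95% interval -0.04 to 0.27, adjusted P = 0.408, but 0.0416 without olaparib 2) and 0.01 for DUSP1 (95% interval -0.13 to 0.15, adjusted P = 0.951). RRM2 was at 124, 129 and 129 CPM with olaparib, also next to its niraparib levels (difference -0.01, adjusted P = 0.973). BAG1 and DEPDC1B differed by -0.10 each (adjusted P = 0.406 and 0.429).

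For 14 of the 24 genes the difference between the drugs itself passed an adjusted P value of 0.05, against 10.0% of all genes tested. The 24 were chosen on the same niraparib libraries, so this count is a description. With a library left out, PHB1 lost the threshold in 6 of 6 fits, and CCN1 and DUSP6 each in 5 of 6. PER3 was at 69.3, 76.9 and 70.0 CPM with olaparib, above DMSO, while niraparib was below DMSO, and niraparib minus olaparib was -0.49 (adjusted P = 2.83e-05). MORN3 was at 8.15, 6.20 and 6.35 CPM with olaparib, which overlaps the DMSO libraries, and the difference was 0.52 (adjusted P = 0.00605). ACAA1 (0.42, adjusted P = 0.00011), GALNT6 (0.33, adjusted P = 0.000168) and L1CAM (0.32, adjusted P = 0.00201) were higher with niraparib than with olaparib. SLC35A3 (-0.38), GTF2A1 (-0.36), LMNB1 (-0.27), OAZ1 (-0.26) and ANP32E (-0.25) were lower with niraparib than with olaparib, with adjusted P values between 0.00106 and 0.00293.

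Circadian clock and PAR bZIP genes, the output regulators of the clock, were read with both drugs. With niraparib 1 of 18 members had an adjusted P under 0.05, PER3, which was lower, and with olaparib 11 of 18 did, all higher (4.42% of all genes were higher at that threshold). The median member stood 0.00, -0.06 and -0.03 above the DMSO mean in the niraparib libraries and 0.37, 0.28 and 0.18 in the olaparib libraries of PARP1 KO cells. NR1D2, a nuclear receptor of the clock, was at 83.9, 83.8 and 73.8 CPM with niraparib, at 88.1, 90.8 and 94.2 CPM in DMSO libraries and at 123, 115 and 98.9 CPM with olaparib. Between the drugs 11 of the 18 members were lower with niraparib at an adjusted P under 0.05 and 0 higher (5.73% of all genes were lower), and for NR1D2 niraparib minus olaparib was -0.48 on the log2 scale (adjusted P = 0.000384).

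Gene lists show how the rest of each pathway behaved. A member is counted here when its unadjusted P value was below 0.05, to be read against the 4.49% higher and 4.65% lower over all genes. With olaparib, 2375 of the 22037 genes were higher and 2265 lower at that threshold. Groups that did not overlap, that is all niraparib libraries above or all below all DMSO libraries, made up 7.44% (higher) and 8.16% (lower) of all genes.

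Immediate early and AP-1 genes, the transcription factors and RNA regulators that respond first to a stimulus, were the list with the largest share of higher members. Of 27 tested, 9 were higher and 0 lower, 9 were higher without overlap, and the median log2 fold change was 0.20. FOS alone passed the adjusted threshold by edgeR, and 4 members passed it by DESeq2. ATF3, a stress-induced factor of the CREB family, was at 62.0, 64.1 and 68.7 CPM with niraparib against 54.4, 53.3 and 46.4 CPM with DMSO (log2 fold change 0.34, adjusted P = 0.0812, edgeR). ZFP36, which destabilizes mRNAs of cytokines and of immediate early genes, was at 36.8, 38.0 and 40.1 CPM against 33.4, 32.1 and 28.5 CPM (0.29, adjusted P = 0.115). These estimates were 0.23 for ATF3 (adjusted P = 0.41) and 0.19 for ZFP36 (adjusted P = 0.52) without niraparib 3 and DMSO 3. FOSB, named here after its values were seen because its estimate was the largest of those 9, was at 10.0, 10.6 and 14.9 CPM against 6.76, 5.64 and 4.42 CPM (1.09, SE 0.25, adjusted P = 0.245). Library by library, the median member stood 0.11, 0.19 and 0.17 above the DMSO mean with niraparib and at 0.09, 0.02 and -0.10 with DMSO, on the log2 scale. Without niraparib 3 and DMSO 3 26 members were tested, of which 8 were higher and 1 lower, and the list's median was 0.10. With olaparib in the same cells 13 of the 27 were higher and 0 lower, and the median was 0.21. At an adjusted P under 0.05, 11 were higher with olaparib, against 4.42% of all genes.

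Kinase and matrix pathways that act next to these genes were read in the same way. Of 19 ERK pathway feedback genes, the phosphatases and inhibitors that ERK induces against itself, 4 were higher (21.1%) and 1 lower, with a median of 0.01, and DUSP1 and DUSP6 passed the adjusted threshold. DUSP4 was the member that was lower, at 137, 141 and 138 CPM with niraparib against 170, 165 and 160 CPM (log2 fold change -0.25, adjusted P = 0.0867), in the direction opposite to DUSP1 and DUSP6. Of 18 YAP and serum response factor targets, 3 were higher (16.7%) and 0 lower, namely CCN1, CCN2 (0.63, adjusted P = 0.391) and VCL (0.12, adjusted P = 0.448). Of the 17 tested without niraparib 3 and DMSO 3, 1 was higher and 2 were lower. Among 12 NF-κB targets 1 was higher and 2 were lower, including NFKBIA, the inhibitor that NF-κB induces (-0.22, adjusted P = 0.222).

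Genes of the cell cycle had estimates slightly below 0. Of 36 DNA replication genes, which build the helicase, the polymerases and the nucleotide supply, 11 were lower and 1 was higher, 13 were lower without overlap, and the median log2 fold change was -0.09. Their leading members were RRM2, the helicase subunit MCM6 (61.0, 67.9 and 67.5 CPM against 75.0, 75.5 and 79.5 CPM, log2 fold change -0.23, adjusted P = 0.136) and CCNE2, a cyclin of the entry into S phase (28.5, 30.3 and 29.4 CPM against 35.4, 32.9 and 36.7 CPM, -0.25, adjusted P = 0.136). The number of lower members was 7 without niraparib 1 and 14 without niraparib 3 and DMSO 3. With olaparib 17 of the 36 were lower and 2 higher, with a median of -0.13. Of 30 mitotic genes 9 were lower and 0 higher, 11 were lower without overlap, and the median was -0.12. This median was -0.07 without niraparib 3 and -0.04 without niraparib 3 and DMSO 3. CDC20, the activator of the anaphase-promoting complex, was at 145, 144 and 136 CPM against 170, 156 and 168 CPM (-0.22, adjusted P = 0.124), and KIF20A, a kinesin of cytokinesis, at 147, 150 and 140 CPM against 171, 169 and 170 CPM (-0.22, adjusted P = 0.124). The mitotic count depended on the libraries and the filter: it was 4 without niraparib 3, 5 without DMSO 3, 3 without both, 12 without niraparib 1, 14 in a fit of the 6 libraries alone and 17 with no filter on low counts. By DESeq2 2 mitotic genes passed the adjusted threshold, and 0 did by edgeR. With olaparib 6 of the 30 were lower and 1 higher, with a median of -0.02.

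Markers of the luminal lineage and targets of the estrogen receptor were also lower in part. Of the 14 luminal markers 5 were lower and 1 was higher, and 7 were lower without overlap. With olaparib 7 of the 14 were lower and 0 higher. TFF3, a secreted trefoil peptide, was at 75.7, 87.1 and 72.2 CPM with niraparib against 93.9, 93.5 and 105 CPM with DMSO (log2 fold change -0.31, adjusted P = 0.0665, edgeR), and its estimate was -0.20 (adjusted P = 0.416) without niraparib 3 and DMSO 3 and -0.40 (adjusted P = 0.0292) without niraparib 2. TFF3 also passed with no filter on low counts (adjusted P = 7.49e-05) and by DESeq2 (adjusted P = 0.0106). At the adjusted threshold 2 luminal markers and 1 gene of the estrogen receptor list passed by DESeq2, and 0 of either list by edgeR. KRT19, a keratin of luminal cells, was at 3445, 3570 and 3436 CPM against 4075, 3996 and 3917 CPM (-0.20, adjusted P = 0.115). Of 23 genes of the estrogen receptor and its targets 7 were lower and 2 higher, median -0.06 (8 and 4 with olaparib). They include IGFBP5, a binding protein of insulin-like growth factors (-0.18, adjusted P = 0.143), KCNK5, a potassium channel (-0.26, adjusted P = 0.265), and the chemokine CXCL12 (-0.20, adjusted P = 0.321).

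In the stress and repair lists 0 members passed the adjusted threshold by edgeR, and 1 each did by DESeq2 in the homologous recombination, interferon and ATF4 lists. Past the unadjusted threshold, to be read against 4.49% higher and 4.65% lower, their members were as follows. Among 22 p53 targets 1 was higher and 1 lower: GADD45B (0.25, adjusted P = 0.199) and MDM2 (-0.14, adjusted P = 0.442). Among 29 genes of homologous recombination and the Fanconi anemia pathway 4 were higher and 2 lower, with RBBP8, which starts end resection, at 119, 116 and 125 CPM against 133, 140 and 141 CPM (-0.20, adjusted P = 0.136). Of 22 genes of the PARP family and of ADP-ribose removal, 0 were higher and 1 lower, MACROD1 (-0.15, adjusted P = 0.428). Among 34 interferon-stimulated genes 1 was higher and 3 were lower, with OAS2 at 9.38, 9.73 and 7.31 CPM against 10.8, 14.3 and 12.9 CPM (-0.53, adjusted P = 0.0971, and -0.38, adjusted P = 0.444, without niraparib 3 and DMSO 3). Of 24 ATF4 and unfolded protein response genes 1 was higher and 4 were lower, among them PHGDH, the first enzyme of serine synthesis (-0.18, adjusted P = 0.136), and TRIB3 (-0.22, adjusted P = 0.179). TRIB3 was at 109, 106 and 99.5 CPM with niraparib, while the DMSO libraries read 124, 121 and 121 CPM and the olaparib libraries 194, 171 and 160 CPM. NRF2 antioxidant genes had 1 higher and 4 lower members of 19 (21.1% lower), heat shock genes 1 and 3 of 16 (18.8% lower), glycolysis and hypoxia genes 1 and 2 of 23 and genes of the aryl hydrocarbon receptor 0 and 1 of 9. The share was 16.7% lower for the ATF4 list and 13.8% higher for homologous recombination. Without niraparib 3 and DMSO 3 the lower members were 1 of 19 for NRF2, 2 of 16 for heat shock and 2 of 24 for ATF4, and 0 of 29 were higher for homologous recombination. Of 13 mitochondrially encoded genes 0 were higher and 0 lower by edgeR, and 2 were higher and 0 lower by DESeq2.

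**Figure D3:**
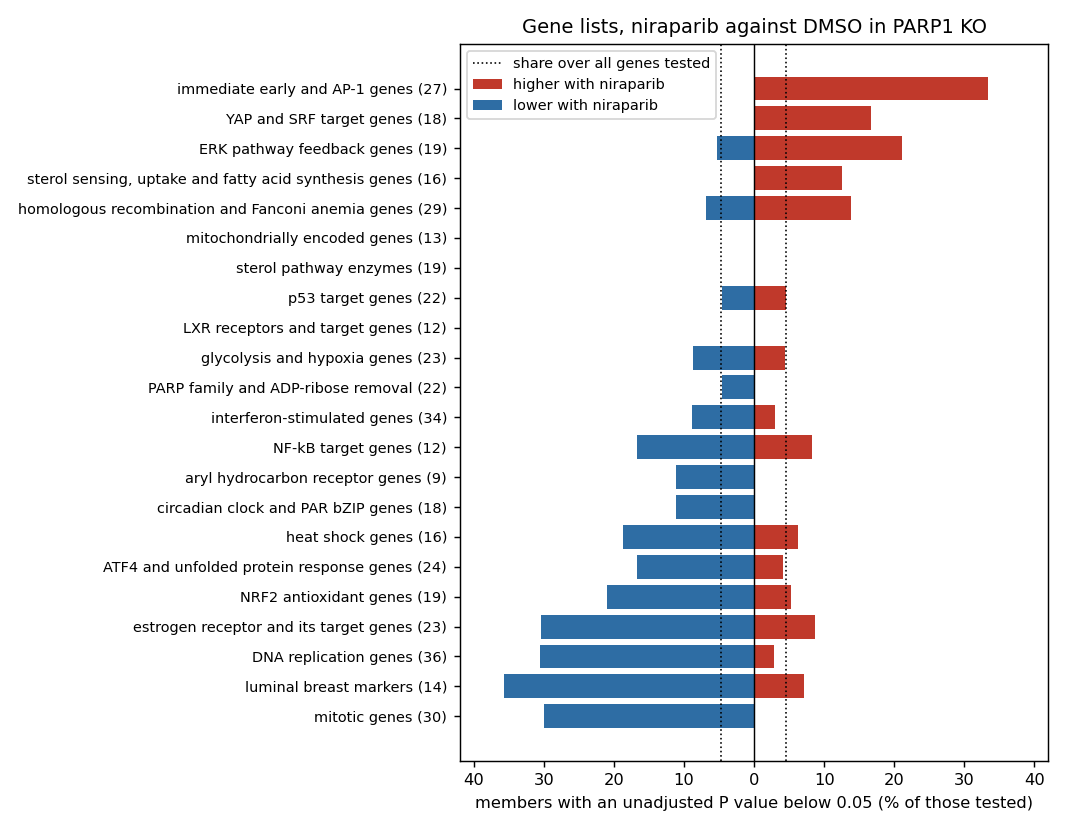
Share of the members tested (percent, horizontal axis) with an unadjusted P value below 0.05 and higher (right) or lower (left) with niraparib than with DMSO in PARP1 KO cells, for each gene list with the number of members tested in parentheses. The dotted lines are the shares over all genes, 4.49% higher and 4.65% lower. Immediate early and AP-1 genes reach 33.3% on the right, and mitotic, DNA replication, luminal and estrogen receptor genes reach furthest on the left.

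The study asked whether niraparib changes the cholesterol pathway, so the sterol genes were read closely in PARP1 KO cells. By edgeR, 0 of the 19 enzymes of sterol synthesis reported here had an adjusted P under 0.05, and at an unadjusted P value below 0.05 there were 0 higher and 0 lower. DESeq2 gave the same counts, and 1 was higher without niraparib 3 and DMSO 3. The median log2 fold change was 0.01. For all 19 the 95% interval lay within 1.5-fold of no change. HMGCS1, which makes HMG-CoA, was at 160 ± 1.95 CPM with niraparib against 167 ± 5.10 CPM with DMSO (SD, n = 3 each), with a log2 fold change of -0.06 (95% interval -0.18 to 0.05). SQLE, squalene epoxidase, was at 124 ± 4.45 and 116 ± 5.09 CPM (0.10, 95% interval -0.01 to 0.22). LSS, lanosterol synthase, was at 119 ± 4.17 and 125 ± 4.49 CPM (-0.07, 95% interval -0.17 to 0.04).

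The genes that sense or import sterols and make fatty acids were close to DMSO as well. Of 16 tested, 2 were higher at an unadjusted P value below 0.05 and 0 lower: SCAP, the escort of SREBP (log2 fold change 0.15, adjusted P = 0.423), and ACSS2, which makes acetyl-CoA from acetate (0.12, adjusted P = 0.49). The count was 0 without niraparib 3 and DMSO 3. INSIG1, which retains SREBP in the endoplasmic reticulum, was at 60.6 ± 7.45 CPM with niraparib against 67.3 ± 2.75 CPM with DMSO (SD, n = 3 each), and its interval was wide (-0.52 to 0.21). Of 12 LXR receptors and targets 0 passed the unadjusted threshold in either direction by edgeR or by DESeq2, but 2 were higher (median 0.12) without niraparib 3 and DMSO 3. ABCG4 and ABCA1, sterol exporters, had positive estimates of 0.61 and 0.34 with intervals from -0.06 to 1.27 and from -0.17 to 0.85, and ABCG4 averaged 1.13 CPM. Without niraparib 3 and DMSO 3 the estimates were 0.22 for ABCG4 and 0.61 for ABCA1, and ABCA1 was at 0.14 without niraparib 2.

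In WT cells the same genes gave other values, and the difference between genotypes was tested as the interaction of genotype and niraparib over all 18 libraries. There 2191 of 24675 genes differed (8.88%, adjusted P below 0.05 and more than 1.5-fold). Of the 19 sterol enzymes, 5 were called in this test, all with a higher value in PARP1 KO than in WT cells, and the median log2 fold change was -0.35 in WT. HMGCS1 differed by 0.82 (SE 0.08, adjusted P = 2.23e-10), INSIG1 by 1.58 (SE 0.20, adjusted P = 6.52e-05) and SCD, a fatty acid desaturase, by 0.97 (SE 0.07, adjusted P = 2.57e-13), all on the log2 scale as PARP1 KO minus WT. MYLIP, a ubiquitin ligase induced by LXR, differed by -1.03 (SE 0.12, adjusted P = 1.3e-08). LSS did not pass (0.11, adjusted P = 0.371), nor did ABCG4 (-0.29, adjusted P = 0.665) or ABCA1 (-0.71, adjusted P = 0.172). The WT line and the PARP1 KO line are separate lines, so the knockout and any other difference between the lines cannot be told apart.

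**Figure D4:**
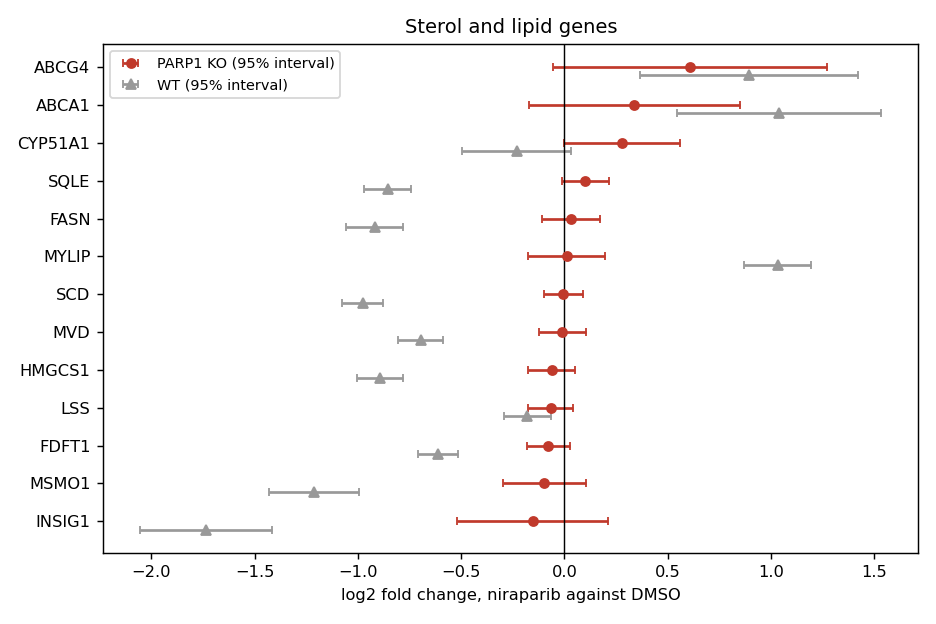
Log2 fold change of niraparib against DMSO (horizontal axis) with its 95% interval for 13 sterol and lipid genes that the study names, in PARP1 KO cells (circles) and in WT cells (triangles). In PARP1 KO cells the intervals of all 13 genes include 0, whereas the triangles of INSIG1 and MSMO1 lie beyond -1.

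Among the 24 genes, 17 had an adjusted P under 0.05 for the difference between genotypes, against 22.9% of all genes tested, and these 24 were chosen on the same PARP1 KO libraries. DUSP1 rose more in WT cells, from 57.0, 62.7 and 48.3 CPM with DMSO to 144, 166 and 142 CPM with niraparib, and its change in PARP1 KO was lower by 0.69 on the log2 scale (SE 0.12, adjusted P = 0.000193, edgeR). FOS went the other way: the WT libraries read 52.6, 48.7 and 36.7 CPM with DMSO and 56.6, 61.0 and 62.4 CPM with niraparib, and the change in PARP1 KO was larger by 0.49 (SE 0.16, adjusted P = 0.0385). This FOS difference was less secure, since in 10 of 12 fits with a library left out the adjusted P value was above 0.05, up to 0.102 without WT niraparib 1. With the replicate block the difference was 0.48 (adjusted P = 0.0508, edgeR). CCN1 had a log2 fold change of 0.06 in WT (adjusted P = 0.383) and a difference between genotypes of 0.34 (adjusted P = 0.000605). RRM2 had opposite changes, lower with niraparib in PARP1 KO and higher in WT cells (127, 145 and 141 CPM with DMSO, 183, 192 and 196 CPM with niraparib), with a difference of -0.72 (SE 0.07, adjusted P = 5.84e-10). OAZ1 fell in both (-0.49 in WT), and the difference of 0.04 did not pass (adjusted P = 0.719).

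The cell cycle and p53 lists were read in the same test, in which 5.20% of all genes were called with a lower and 3.68% with a higher value in PARP1 KO. The median log2 fold change of the DNA replication genes was -0.09 in PARP1 KO and 0.48 in WT cells, and for 19 of 36 members the interaction was called with a lower value in PARP1 KO. For the mitotic genes the medians were -0.12 and -0.99, and 21 of 30 members were called with a higher value in PARP1 KO. For p53 targets the medians were -0.01 and 0.78, and 14 of 22 members were called with a lower value in PARP1 KO. These are RNA levels of a list, and the activity of p53 was not measured.

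Genes picked by their response in WT cells give the converse view. The contrast behind the choice used WT libraries, while the filter, the size factors and the spread came from all 18. Of the genes called higher with niraparib in WT, 1741 were tested in PARP1 KO cells: 1140 had a positive estimate there (65.5%), 211 were higher at an unadjusted P value below 0.05 (12.1%, against 4.49% of all genes), 4 had an adjusted P under 0.05, and the median log2 fold change was 0.08 against 0.96 in WT. Of those called lower in WT, 1282 were tested, 750 had a negative estimate (58.5%), 152 were lower at that threshold (11.9%, against 4.65%), 3 had an adjusted P under 0.05, and the median was -0.04 against -0.93. Over all 22037 genes tested in PARP1 KO, 11297 had a positive and 10739 a negative estimate. The WT medians are of genes chosen for passing the thresholds in WT, a choice that favours large WT estimates.

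Single genes with large changes in WT, at a mean of at least 1 CPM there, had these values in PARP1 KO cells. KIF20A had a log2 fold change of -3.00 in WT and was at 145 ± 5.40 CPM with niraparib against 170 ± 1.33 CPM with DMSO in PARP1 KO cells (SD, n = 3 each). PLK1, the kinase that drives mitotic entry, had -2.45 in WT and 187 ± 8.37 against 202 ± 1.02 CPM in PARP1 KO. TNFAIP8L1 had -3.55 in WT and 15.1 ± 1.62 against 18.6 ± 1.37 CPM in PARP1 KO. CREB5, a factor of the CREB family, had 3.28 in WT and 5.32 ± 0.64 against 3.80 ± 0.25 CPM in PARP1 KO. RASSF10, with 6.87 in WT, was at 0.42 ± 0.07 against 0.10 ± 0.08 CPM in PARP1 KO, and MMP10, a matrix metalloproteinase with 8.44 in WT, was at 0.03 CPM on average in both groups. Both are below 1 CPM in PARP1 KO: the estimate of RASSF10 was 1.98 (95% interval 0.84 to 3.11, adjusted P = 0.187, edgeR), and the interval of MMP10 ran from -3.34 to 3.22.

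**Figure D5:**
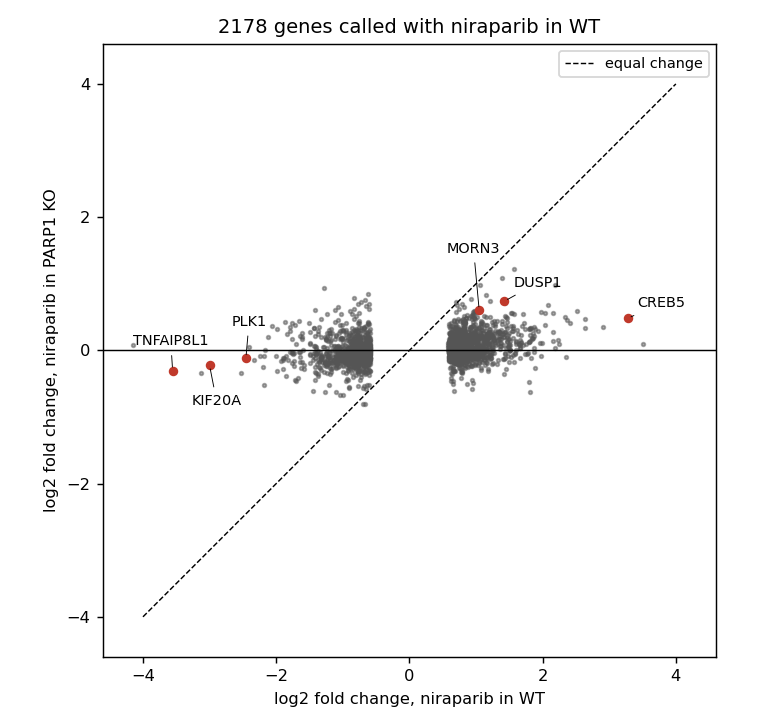
Log2 fold change with niraparib in PARP1 KO cells (vertical axis) against that in WT cells (horizontal axis) for the 2178 genes called in WT with a mean of at least 1 CPM in the PARP1 KO libraries, with a point for each gene and 6 of them named. The points spread along the horizontal axis and stay near 0 on the vertical axis, so that most lie between the horizontal line at 0 and the dashed line of equal change or on the far side of 0, with DUSP1 and MORN3 at 0.74 and 0.60.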

How the data were processed

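RNA of T47D cells was sequenced from 18 libraries in 6 groups of 3, and the 6 libraries of PARP1 KO cells with niraparib or DMSO are the subject here. The authors deposited raw counts per gene: reads were trimmed with Trimmomatic, aligned to GRCh38 with STAR, passed through Picard MarkDuplicates and assigned to exons with featureCounts 2.0.0 on Ensembl release 96, on the reverse strand and for primary alignments, per the file headers and the methods. Whether duplicates were removed or only marked is not stated clearly, and removal would flatten the highest genes. Of 58884 gene identifiers, 58472 matched a symbol. All 18 libraries held 28890837 to 52251288 counts.

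The filter kept genes whose counts summed to over 10. The test was the robust quasi-likelihood F test of edgeR 4.0.16 (R 4.3.3), with TMM factors and Benjamini-Hochberg adjustment, in a fit of the 9 PARP1 KO libraries, or of all 18 for WT values and the interaction. Called genes passed both an adjusted P of 0.05 and a 1.5-fold change. The biological coefficient of variation was 7.42%. The standard error is the absolute log2 fold change over the square root of F, and CPM are counts per 1000000 counts of the library, with the library total scaled by its TMM factor except for PARP1 across genotypes and summed markers. The sources do not state that replicate libraries came from separate dishes, so P values measure only the spread between these libraries, which may be technical.

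The members, gene lists and rules were chosen with earlier results of these data known. Named were the called genes, then those with the smallest P values, a mean of at least 1 CPM and no overlap until 24 were reached, up to 3 members of each list by P value, PARP1, 13 genes the study names, and the 10 genes that rose and the 10 that fell most in WT cells. Those picked in WT cells also had a mean of at least 1 CPM and no overlap there. The alternatives were RLE size factors, filterByExpr, no filter on low counts, DESeq2 1.42.0, a replicate block, other thresholds, fits of 6 or 18 libraries and each library left out. Leaving out niraparib 3 and DMSO 3 together was added after seeing the data. The scripts were tested on simulated data. Some genes of the sterol lists are not reported here.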

Additional observations from a re-analysis of the deposited data

Results flagged for a closer look

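The change with niraparib differed between PARP1 KO and WT cells for 2191 genes by the interaction test (edgeR, adjusted P below 0.05 and more than 1.5-fold), 908 with a higher and 1283 with a lower value in PARP1 KO. The values below are the niraparib log2 fold change in PARP1 KO minus that in WT.

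Of the genes that passed an adjusted P value of 0.05 with niraparib in PARP1 KO cells, those picked out by this test were DUSP1 (-0.69), DUSP6 (0.68), DEPDC1B (1.01), B4GALNT3 (0.68) and RRM2 (-0.72). DUSP1 rose in both lines, and RRM2 had opposite directions in them.

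Of the sterol and lipid genes, it picked out INSIG1 (1.58), MSMO1 (1.11), SCD (0.97), FASN (0.95), SQLE (0.95), HMGCS1 (0.82) and MVD (0.68), with a value in PARP1 KO that was less negative than in WT or near 0, and MYLIP (-1.03), which was at 0.01 in PARP1 KO and 1.03 in WT.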

How the results depend on the processing

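With niraparib in PARP1 KO cells 3 genes were called. The count was 24 without the 1.5-fold limit, 0 with an absolute log2 fold change above 1.5 (2014 genes had an unadjusted P value below 0.05), 6 in a fit of all 18 libraries, 24 with no filter on low counts, 8 by DESeq2, 2 with the replicate block and 2 to 3 with a library left out. Genes with an adjusted P under 0.05 numbered 24, against 184 with no filter, 97 by DESeq2, 70 with 18 libraries and 11 with the replicate block. The replicate numbers gave no consistent pairing. Deviations from the group means of same-numbered niraparib and DMSO libraries correlated at -0.27, -0.067 and -0.51 over 13503 genes. Against olaparib they correlated at 0.35, -0.15 and 0.55. Differently numbered libraries reached 0.47 (niraparib 3 and DMSO 1) and 0.44 (niraparib 2 and olaparib 1). Whether a call lost under the block reflects a weaker effect therefore cannot be told. FOS and DUSP1 were called in each of these fits except that with the higher fold limit. Without niraparib 3 and DMSO 3, an alternative chosen after seeing the data, 2 genes were called.

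For olaparib in PARP1 KO cells the count of 177 became 1827 without the fold limit, 21 with the higher limit and 100 to 195 with a library left out (113 without olaparib 2, 100 without DMSO 2, 107 without DMSO 3). For niraparib against olaparib, 236 became 2203, 24 and 144 to 281 (144 without niraparib 2). For the interaction, 2191 became 5661 and 457, and for niraparib in WT cells 3101 became 8448 and 729. The block gave 148, 206, 2038 and 2893 for these 4 comparisons.

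Log2 fold changes near 0 changed sign. Without niraparib 3 and DMSO 3, those of MSMO1, SCD and FASN in PARP1 KO were 0.031, 0.019 and -0.099. With a library left out, the range in PARP1 KO with niraparib was -0.073 to 0.033 for PARP1, -0.064 to 0.034 for MVD, -0.034 to 0.058 for MYLIP, -0.027 to 0.010 for SCD and -0.050 to 0.096 for FASN. With olaparib it was -0.056 to 0.15 for MORN3, -0.095 to 0.040 for GTF2A1, -0.0043 to 0.087 for L1CAM, -0.054 to 0.049 for LMNB1 and -0.022 to 0.068 for SLC35A3. For niraparib against olaparib it was -0.035 to 0.072 for DUSP1 and -0.027 to 0.015 for RRM2. For the interaction it was -0.0033 to 0.078 for OAZ1, -0.061 to 0.097 for ADARB1 and -0.53 to 0.050 for ABCG4. In WT it was -0.012 to 0.13 for CCN1, -0.13 to 0.085 for ABCC11, -0.023 to 0.072 for ACAA1, -0.049 to 0.067 for GALNT6, -0.24 to 0.0080 for DUSP6 and -0.069 to 0.040 for PER3. The cause of these moves was not tested. Few genes of low level had narrow intervals: the 95% interval lay within 1.5-fold of no change for 11692 of the 22037 genes tested, and 11684 of these averaged at least 1 CPM.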

Other observations

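Markers of other cell types were read beside the luminal ones. Of 7 basal and myoepithelial markers 5 were tested, with 1 higher at an unadjusted P value below 0.05, MYLK, the myosin kinase of contractile cells (log2 fold change 0.25, adjusted P = 0.486, edgeR). The 7 markers together took 131 to 139 CPM with niraparib against 124 to 136 CPM with DMSO in PARP1 KO cells. Of 10 fibroblast and mesenchymal markers 8 were tested and 1 had a mean of at least 1 CPM. Of these 8, 7 had a positive estimate, the median log2 fold change was 0.44, and 1 was higher at an unadjusted P value below 0.05: CDH2, the N-cadherin gene, at 0.27 ± 0.07 CPM with niraparib against 0.09 ± 0.03 CPM with DMSO (SD, n = 3 each, log2 fold change 1.60, adjusted P = 0.48, edgeR). The 10 markers together took 99.9 to 136 CPM with niraparib against 88.1 to 106 CPM with DMSO. Without niraparib 3 and DMSO 3, 7 of them were tested, with a median log2 fold change of 0.72.

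Of the 13 mitochondrially encoded genes, the median member stood 0.05, -0.02 and 0.28 above the DMSO mean in niraparib 1, 2 and 3 on the log2 scale. By DESeq2, 2 of the 13 were higher at an unadjusted P value below 0.05. The list's median log2 fold change was 0.13, and 0.020 without niraparib 3.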
